A study of Mus musculus with 4 samples.

Results

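The 7 genes described here belong to the urea cycle of the hepatocyte. They were chosen by name: 4 enzymes of the cycle (Cps1, Otc, Ass1 and Asl), the enzyme that makes the activator of the first of them (Nags), and the 2 mitochondrial carriers that serve it (Slc25a13 and Slc25a15). They are 7 of 21728 protein-coding genes, and all 7 are among the 14212 genes with a mean of at least 10 CPM, which are counts scaled to a library total of 1000000. The assay was single-nucleus ATAC-Seq (scATAC-Seq), in which the Tn5 transposase cuts open DNA and a droplet barcode names the nucleus. The 4 libraries held hepatocytes freed by collagenase perfusion from livers of adult male C57BL/6J mice on normal diet, aged 10 to 12 weeks by the labels. The published methods give a partly younger age at surgery. The group PHx 0 h was undamaged liver, and the groups PHx 48 h, 72 h and 96 h were taken that long after partial hepatectomy (PHx), an operation that takes away a portion of the liver so that the rest regrows. Each group was 1 library. The 0 and 48 h libraries came from 1 hepatocyte preparation each, that of 48 h from 1 mouse, and whether animals were pooled at 72 and 96 h is not stated in the sources used here. Time and library therefore cannot be told apart, no test between time points was possible, and the intervals below are exact 95% Poisson intervals that cover counting error only.

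The urea cycle turns the ammonia of amino acid breakdown into urea for excretion, and in mammals the full cycle runs almost only in the liver. Its first steps lie in the mitochondrion and the later ones in the cytosol, so carriers must move ornithine, citrulline and aspartate across the inner membrane. The enzymes are most abundant in hepatocytes near the portal vein, while glutamine synthetase takes up the remaining ammonia near the central vein.

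Of the members, 5 of 7 had an entry in the RefSeq promoter table of build GRCm38.p6, which runs from 250 bases before to 50 bases after a start site. These were Ass1, Nags, Otc, Slc25a13 and Slc25a15, with 6 entries in all because Slc25a15 had 2. Cps1 and Asl had none. The promoters of Nags and Otc are shown because few peaks overlapped the gene body plus 2000 bp upstream at 96 h, 1 at Nags and 2 at Otc. A peak overlapped each of these stretches. The Nags promoter is chr11:102145263-102145562 and the Otc promoter is chrX:10252055-10252354, both on the plus strand. The third sequence is the middle of the other Otc peak at 96 h, an intronic element near the 3′ end of the gene at chrX:10318152-10318451. Capitals mark matches to the motif letters searched, and a sequence without capitals had no match.
Nags promoter: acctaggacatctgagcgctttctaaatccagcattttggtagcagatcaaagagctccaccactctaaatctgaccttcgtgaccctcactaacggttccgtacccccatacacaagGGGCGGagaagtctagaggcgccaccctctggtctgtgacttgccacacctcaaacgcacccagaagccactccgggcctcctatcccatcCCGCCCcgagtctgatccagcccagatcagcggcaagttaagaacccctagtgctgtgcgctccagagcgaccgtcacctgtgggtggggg
Otc promoter: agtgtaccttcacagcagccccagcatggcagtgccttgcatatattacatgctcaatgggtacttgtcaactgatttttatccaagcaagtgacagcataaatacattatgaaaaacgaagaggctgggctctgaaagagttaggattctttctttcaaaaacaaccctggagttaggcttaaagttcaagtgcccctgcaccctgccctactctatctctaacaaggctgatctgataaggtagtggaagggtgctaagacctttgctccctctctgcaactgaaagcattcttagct
Otc intronic element: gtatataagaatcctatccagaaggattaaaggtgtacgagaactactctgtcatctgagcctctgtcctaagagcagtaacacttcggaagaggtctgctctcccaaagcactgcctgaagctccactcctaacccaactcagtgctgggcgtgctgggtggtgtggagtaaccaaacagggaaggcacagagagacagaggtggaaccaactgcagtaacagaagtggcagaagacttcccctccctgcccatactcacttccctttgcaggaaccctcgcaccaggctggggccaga

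Motifs of 9 factors or boxes were searched on both strands of the promoter entries. The letters were TTGCNNAA for C/EBP, CAAAGTCCA for HNF4A, GTTAAT for HNF1, TGTTCT for the glucocorticoid receptor, TGACGTCA for CREB, TGTTTAC for FOXA, TATAAA for the TATA box, CCAAT for the CCAAT box and GGGCGG for Sp and KLF factors. The last of these was found in 4 of the 6 member entries and in 35.7% of all 32851 promoters of the table. Nags held 2 copies, beginning at bases 119 and 210 of the printed stretch, Ass1 held 1, and the Slc25a15 entries held 5 and 3. In the Slc25a15 entry with 5 copies, those beginning at bases 239 and 243 overlapped, and no match overlapped one of another motif. CCAAT was found only in Slc25a13 among the member entries, and in 37.4% of all promoters. None of the other letters was found in the 6 member entries. Their shares of all promoters were 10.8% for C/EBP, 0.475% for HNF4A, 7.1% for HNF1, 19% for the glucocorticoid receptor, 1.79% for CREB, 3.65% for FOXA and 13.6% for the TATA box. A match or its absence describes these letters in these windows only.

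The later the library, the shallower it was, with 136582768, 62000846, 24724883 and 14935507 counts at 0, 48, 72 and 96 h in 3977, 3892, 4256 and 3224 nuclei, where a nucleus is a barcode with at least 1000 counts. Peaks had been called in each library on its own, and covered 153.6, 179.0, 141.2 and 60.9 Mb of the genome. In the window of the median gene (gene body plus 2000 bp upstream) peaks covered 17.2%, 20.3%, 15.5% and 7.5%. The 96 h library thus held the least covered DNA, and the members' levels by time are given below with the covered length or the level per kb. Pairs of libraries listed 681 to 882 barcode sequences in common, but only 27 to 60 of these were nuclei in both. At 0 h, 877 nuclei carried a barcode also listed in another library, and they held 49.3% of the counts. Without all such nuclei the members kept the same numbers of genes past 1.5-fold at each time, and their median log2 ratios were -0.0096, -0.52 and -0.33 at 48, 72 and 96 h. All 10 hepatocyte markers had counts in every library, with summed levels of 3470, 3904, 2632 and 3659 CPM. Summed levels were 251 to 499 CPM for 10 endothelial markers, 110 to 285 for 10 Kupffer and other immune markers, 73.2 to 157 for 8 stellate and mesenchymal markers and 46.6 to 69.4 for 5 cholangiocyte markers. At 0, 48, 72 and 96 h, 9, 10, 10 and 9 endothelial and 5, 8, 8 and 4 immune markers had counts. Stellate and mesenchymal markers with counts numbered 6, 7, 7 and 4, and cholangiocyte markers 3, 4, 5 and 3. Vsig4 was at 0 in all 4 libraries, and Dcn and Krt19, among others, in 3 of them. The summed levels are over all nuclei, so fewer open nuclei and less open DNA per nucleus cannot be told apart.

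The direction of change across the 7 genes depended on the measure. In CPM 2, 2 and 1 of 7 were above 0 h at 48, 72 and 96 h and the others below it, beside 44.2%, 46.7% and 54.9% of genes above. Per kb of covered peak the numbers above were 4, 4 and 7, beside 17.96%, 69.98% and 99.02% of genes. Cps1 was more than 1.5-fold higher at 48 and 96 h than at 0 h, Ass1 did not pass 1.5-fold at any time, Asl was lowest at 72 h, and Nags, Otc and Slc25a13 were lower in the late libraries over a shorter covered length. At 48 h, 1 member was at least 1.5-fold higher than at 0 h and 3 were at least 1.5-fold lower, where 11.2% and 7.27% of the 14212 genes passed these limits. At 72 h the members numbered 0 higher and 3 lower, beside 16.4% and 16.6% of genes. At 96 h they numbered 1 higher and 3 lower, beside 16.5% and 17.1% of genes. The median member had a log2 ratio to 0 h of -0.0066, -0.51 and -0.38 at 48, 72 and 96 h, and the median gene of -0.06, -0.05 and 0.07. With 7 genes and 1 library a time point these medians are descriptions, and they depend on the covered length, as set out gene by gene.

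**Figure D1:**
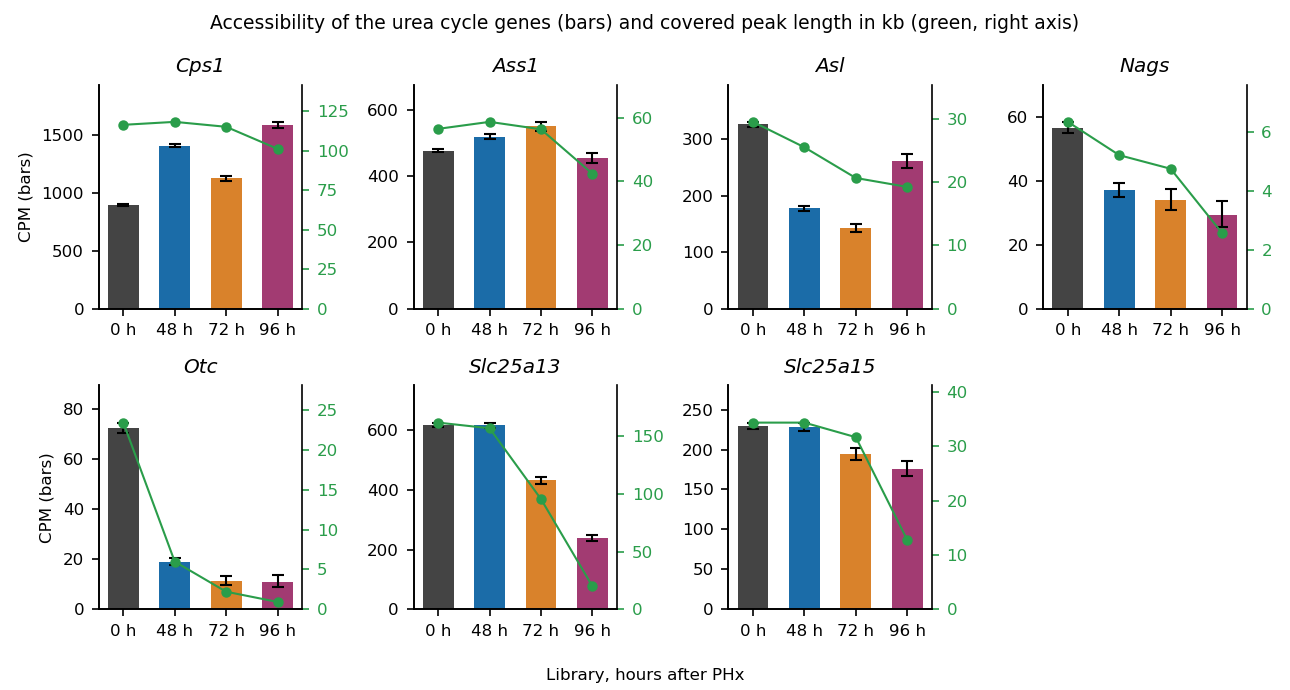
Level of each urea cycle gene in the 4 libraries: bars give CPM (left axis) with 95% Poisson intervals, and green points give the covered peak length in kb (right axis, from 0). Cps1 stood at 894 CPM over 116266 bp at 0 h and at 1580 CPM over 101081 bp at 96 h, whereas Otc and Slc25a13 were lower at 96 h in both level and covered length.

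Nags makes N-acetylglutamate, without which carbamoyl phosphate synthetase is inactive. The gene lies at chr11:102145513-102149477. Its level was 56.8, 37.1, 34.0 and 29.5 CPM at 0, 48, 72 and 96 h. The 0 h library was the highest, the intervals of 48 and 72 h overlapped, and so did those of 72 and 96 h. Relative to 0 h, log2 ratios were -0.60, -0.72 and -0.92. The 48 h ratio was just past the 1.5-fold limit, and it was -0.54 once the median gene was set to 0 and -0.55 with a pseudocount of 5 CPM or for the gene body alone. Per kb of covered peak the level was 8.96, 7.14, 7.17 and 11.5 CPM, over 6331, 5202, 4741 and 2564 bp. On that scale the log2 ratios were -0.33, -0.32 and 0.36, and no time passed 1.5-fold. Peaks at Nags formed 2 blocks. The first, over the start site and the coding exons, was 4303, 3285, 3207 and 2564 bp long with 37.2, 25.2, 23.3 and 29.5 CPM, so at 96 h it stood at 0.796 of its 0 h level. The second lay upstream at chr11:102142083-102144110 and was 2028, 1917, 1534 and 1030 bp long with 19.5, 11.9, 10.6 and 12.3 CPM. At 96 h this upstream peak ended short of the gene window and was not counted there. With both blocks counted in every library, the 96 h ratio of Nags was -0.44 and no longer past the limit.

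Cps1 encodes carbamoyl phosphate synthetase, which joins ammonia and bicarbonate at the entry of the cycle. The gene lies at chr1:67123026-67231259. Its level was 894, 1405, 1123 and 1580 CPM at 0, 48, 72 and 96 h, and no pair of intervals overlapped. The 96 h library was the highest and the 0 h library the lowest. Log2 ratios to 0 h were 0.65, 0.33 and 0.82. With counts binarised per peak and nucleus, where a long peak adds at most 1 per nucleus, the ratios were -0.049, 0.96 and 2.80, so 48 h was no longer past 1.5-fold and 72 h was. At the start site alone the 96 h ratio was -5.14. The gene was open over nearly its whole length: 98.4%, 98.9%, 98.6% and 88.7% of its window lay in peaks. At 72 h a single peak of 115013 bp ran over the whole gene body and was the longest of 164113 peaks in that library. A single peak of 118143 bp at 48 h was the third in length of 158652. At 0 h the gene held 2 peaks, the longer of 63028 bp, and at 96 h it held 15, the longest of 37570 bp. The level per kb of covered peak was 7.69, 11.9, 9.76 and 15.6 CPM. On that scale the log2 ratios were 0.63, 0.34 and 1.02, while the median gene had -0.23, 0.16 and 1.251. Cps1 was therefore above the median gene per kb at 48 and 72 h and below it at 96 h.

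Covered length could be held nearly equal for some members. Genes were compared where the longer of the covered lengths at the 2 times exceeded the shorter by at most 25%, a set chosen after the data had been seen. At 48 h this set held 8243 genes and all members but Otc. Of these 6 members 1, Cps1, was higher, where 1.16% of the genes were, and 2, Asl and Nags, were lower, where 4.15% were. The covered lengths of Nags still differed, and in its element of near-equal length the log2 ratio was -0.56, within the limit. At 72 h it held 6694 genes, with Cps1, Ass1 and Slc25a15. None of the 3 passed 1.5-fold in either direction, beside 7.6% of genes that were higher and 2.88% that were lower. At 96 h only 669 genes were left, with Cps1 as the 1 member. It was 1.5-fold higher, as were 71.2% of these genes, while 0.149% were lower. The median gene of the 96 h set had a log2 ratio of 0.84, beside 0.82 for Cps1. At 48 h the median gene of the set was at -0.17 and Cps1 at 0.65.

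Otc encodes ornithine transcarbamylase, which makes citrulline in the mitochondrion. The gene lies on the X chromosome at chrX:10252305-10321024. Its level was 72.4, 19.0, 11.4 and 11.1 CPM at 0, 48, 72 and 96 h. The 0 h library was the highest and the intervals of 72 and 96 h overlapped. These gave log2 ratios to 0 h of -1.87, -2.56 and -2.60, the lowest of the 7 members at each time. The median of 342 genes on the X chromosome was -0.05, -0.08 and 0.21. The gene held 17, 7, 4 and 2 peaks, and the covered length was 23381, 5981, 2217 and 937 bp. Per kb of covered peak, over all its peaks together, Otc stood at 3.09, 3.18, 5.16 and 11.9 CPM, at no time below 0 h. The median gene stood at 7.32, 6.09, 7.91 and 16.9. Single peaks differed from this: at 48 h the intronic element printed above had 3.31 CPM per kb against 4.31 at 0 h, while others were higher.

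The Otc peaks differed in how they changed. That over the start site had 16.6, 12.8, 4.004 and 5.22 CPM, over 4903, 3832, 694 and 451 bp. The intronic element printed above, at chrX:10317195-10318753, had 6.71, 1.98, 7.24 and 5.89 CPM over 1559, 600, 1404 and 486 bp. It held more counts than any other peak of the gene at 72 and 96 h, with 63.3% and 53.0% of the counts. A further region at the 3′ end, which held the last exon in the 0 h library only, chrX:10319370-10326849, had 27.3, 6.94, 18.7 and 1.61 CPM, over 7480, 2942, 5528 and 177 bp. Only at 0 h did its peak reach into the gene window. With that region counted in every library, Otc had 72.4, 25.9, 30.1 and 12.7 CPM and log2 ratios of -1.45, -1.24 and -2.42. The gene thus stayed past the 1.5-fold limit at all 3 times, and the 72 h value moved most. Of the 17 peaks at 0 h, 14 were intronic, and the element named was the only 1 of these with a peak at 96 h.

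**Figure D2:**
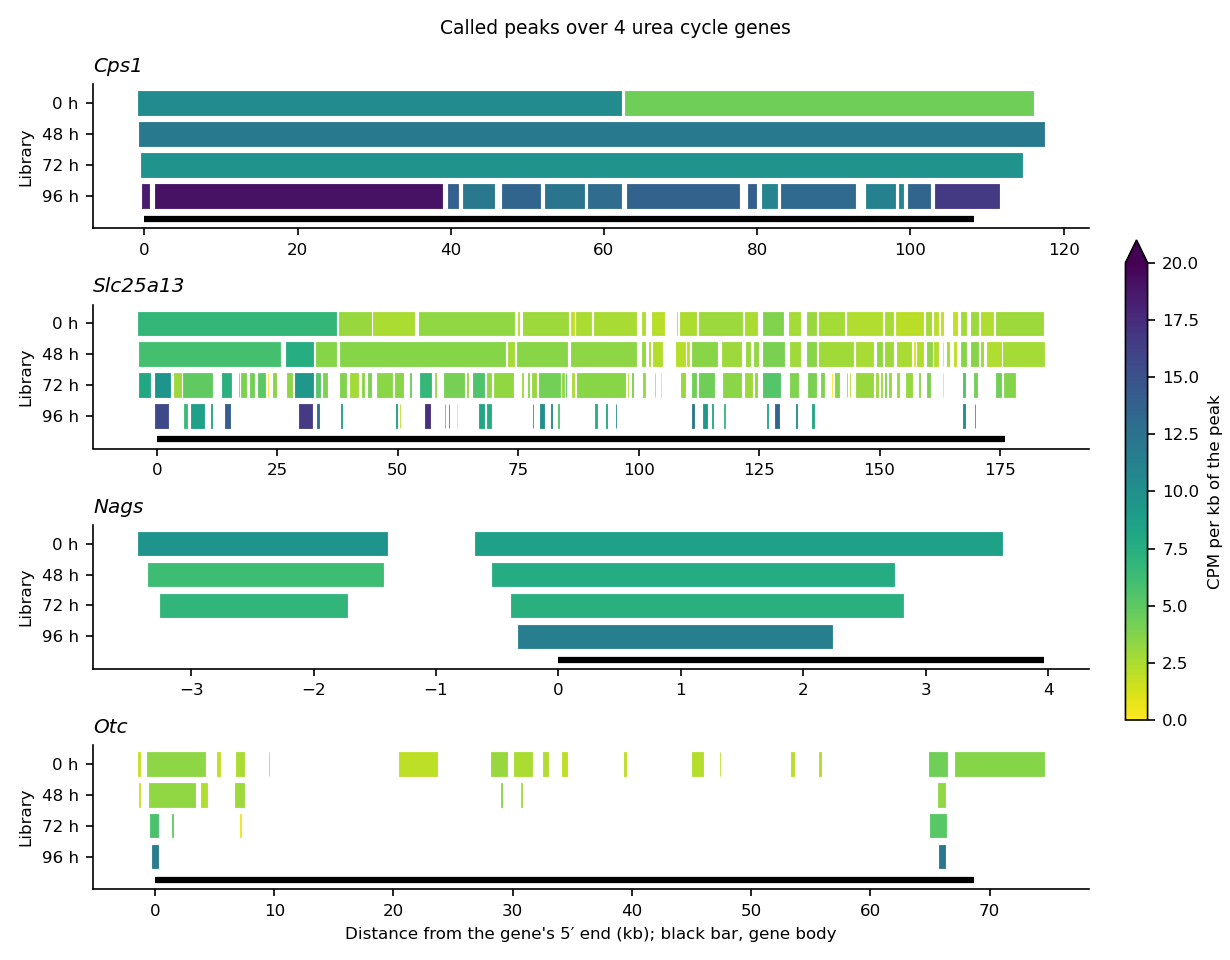
Called peaks over Cps1, Slc25a13, Nags and Otc in the 4 libraries, plotted by distance from the 5′ end of the gene in kb, with colour giving CPM per kb of the peak and the black bar the gene body. Cps1 lay in peaks over at least 88.7% of its window in each library, while Otc went from 17 peaks at 0 h to 2 at 96 h and Slc25a13 from blocks of up to 40922 bp to 33 peaks of at most 2850 bp.

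Ass1 encodes argininosuccinate synthetase, which joins citrulline and aspartate in the cytosol. It lies at chr2:31470207-31520672. Its level was 476, 519, 550 and 455 CPM at 0, 48, 72 and 96 h. The 72 h library was the highest and the 96 h library the lowest, and the intervals did not overlap. Its log2 ratios to 0 h were 0.12, 0.21 and -0.07, so no time passed 1.5-fold. Binarised counts gave 0.65, 1.57 and 2.46, past it at all 3 times. In the libraries of 0, 48 and 72 h a single peak of 56412 to 58744 bp held at least 99.0% of the window. At 96 h the same window held 15 peaks and 76.1% of it was covered. Per kb of covered peak the level was 8.43, 8.83, 9.76 and 10.7 CPM. By CPM over the gene window, Ass1 was the member whose log2 ratios stayed nearest to 0 by their largest size.

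Asl encodes argininosuccinate lyase, which splits argininosuccinate into arginine and fumarate. The gene lies at chr5:130011258-130029247. Its level was 327, 178, 143 and 262 CPM at 0, 48, 72 and 96 h, and no pair of intervals overlapped. The 72 h library was the lowest and the 96 h library lay between 48 and 0 h. Log2 ratios to 0 h were -0.87, -1.19 and -0.32. The summed hepatocyte markers were also lowest at 72 h, and their part in this was not tested. Per kb of covered peak the level was 11.1, 6.97, 6.90 and 13.6 CPM, so Asl was also lower at 48 and 72 h on that scale, with log2 ratios of -0.67 and -0.68. With counts binarised per peak and nucleus the direction was the opposite, with 0.66 and 0.69. Peaks of Asl ran into the neighbouring gene Crcp: such peaks held 100%, 25.6%, 18.6% and 14.5% of the counts, and the level at 0 h cannot be assigned to Asl alone.

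Slc25a13 encodes citrin, the carrier that brings aspartate out of the mitochondrion. The gene lies at chr6:6041218-6217173 and is the longest of the 7. Its level was 618, 616, 432 and 239 CPM at 0, 48, 72 and 96 h. The intervals of 0 and 48 h overlapped, and the 96 h library was the lowest. Against 0 h the log2 ratios were -0.0037, -0.51 and -1.37, the last of them past 1.5-fold. Covered length was 161911, 157018, 95650 and 20129 bp, so a gene covered over 85.4% of its window at 0 h was covered over 11.3% at 96 h. The number of peaks was 30, 36, 70 and 33. Per kb of covered peak the level was 3.82, 3.92, 4.52 and 11.9 CPM, the opposite order to that of the CPM.

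Slc25a15 encodes the carrier that exchanges ornithine for citrulline. It lies at chr8:22375551-22398597. Its level was 229, 228, 194 and 176 CPM at 0, 48, 72 and 96 h. The intervals of 0 and 48 h overlapped, and 72 h lay below them and above 96 h with no overlap. Log2 ratios to 0 h were -0.0066, -0.24 and -0.38, and no time passed 1.5-fold. With binarised counts they were 0.37, 0.84 and 0.85, the last 2 past it. Covered length was 34368, 34366, 31686 and 12791 bp, and the level per kb of covered peak 6.67, 6.64, 6.13 and 13.8 CPM. Peaks shared with the neighbouring gene Tpte held 15.9%, 21.4%, 29.9% and 0% of its counts.

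**Figure D3:**
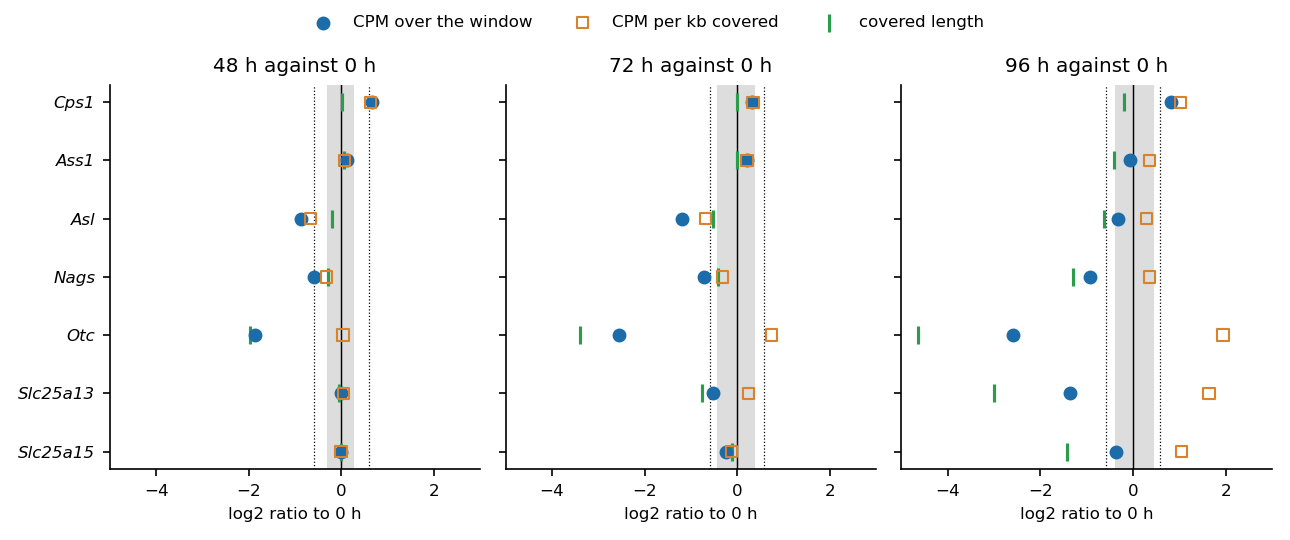
Log2 ratio to 0 h of each member at 48, 72 and 96 h for CPM over the gene window (blue), CPM per kb of covered peak (orange) and covered length (green), with the grey band giving the interquartile range of the CPM ratios of 14212 genes and dotted lines 1.5-fold. Cps1 lies at 0.65 and 0.63 on the first and second scale at 48 h, while Otc at 96 h lies at -2.60 and 1.94.

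Set side by side per kb of covered peak, the members differed from each other at 0 h. Asl stood at 11.1 CPM per kb, in a peak shared with Crcp. Nags, Ass1 and Cps1 stood at 8.96, 8.43 and 7.69, near the median gene with 7.32. Slc25a15 had 6.67, and Slc25a13 and Otc were the lowest with 3.82 and 3.09. At 96 h the median gene was at 16.9 CPM per kb, and all 7 members lay below it, Cps1 the nearest with 15.6.

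Peaks at the start site alone gave no comparable measure. They were taken as peaks within 500 bp of the 5′ end, and 6 of the 7 members passed the minimum there, all but Otc. In the broad genes such a peak was the whole domain in 1 library and a fragment of it in another: at Cps1 it was 63028, 118143, 115013 and 958 bp long with 657, 1405, 1123 and 17.7 CPM. By this measure 1 of all 7 members, Otc included, was higher and 2 were lower at 48 h, beside 6.44% and 9.88% of 11424 genes. The numbers were 1 and 5 at 72 h, beside 9.09% and 19.8%, and 0 and 6 at 96 h, beside 19.7% and 15.3%. The start site peaks of Nags differed least in length, with log2 ratios of -0.55, -0.65 and -0.33.

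Whether the genes differed between zones of the liver lobule was asked within each library, where peaks are the same for all nuclei. Nuclei were scored by counts at 10 periportal minus 13 pericentral genes, none of them a member, after thinning to 2000 counts. The upper and lower of 3 equal parts were then compared, with 1239, 1193, 1206 and 828 nuclei in each. They are called periportal and pericentral nuclei here. A limit of 1.2-fold was used, set after earlier results of these data were known.

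Cps1 was higher in periportal nuclei in all 4 libraries by at least 1.2-fold. It had 770 and 977 CPM at 0 h, 1106 and 1748 at 48 h, 988 and 1308 at 72 h, and 1318 and 1858 at 96 h in pericentral and periportal nuclei, and the intervals did not overlap at any time. Its log2 ratios were 0.34, 0.66, 0.40 and 0.50. It stayed past the limit in 7, 9, 9 and 8 of 9 other settings. Those short of it at 0 h gave 0.247 without nuclei that had more counts at other markers than at hepatocyte markers, and 0.26 for a score from every other zone gene. For Asl the log2 ratios were 0.38, 0.67, 0.29 and 0.48, past the limit in 9, 9, 1 and 7 of these settings. The Asl counts at 0 h all lay in a peak shared with Crcp, so that ratio cannot be assigned to Asl alone. At 72 h the Asl value was 0.148 and 0.061 when only every other zone gene made the score and 0.046 without shared barcodes. Ass1 had 446 and 493 CPM at 0 h and 325 and 579 at 96 h, and its log2 ratios of 0.14, 0.55, 0.40 and 0.83 passed the limit at all times but 0 h. In the other settings Ass1 passed it in 1, 9, 9 and 8 of 9, with 0.30 at 0 h when member counts were thinned and 0.094 at 96 h for start site peaks. Whether these ratios differed between libraries was not tested, as each time had 1 library.

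Otc was higher in periportal nuclei as well, with log2 ratios of 0.51, 0.33, 0.70 and 0.59, but on few counts in the later libraries, and past 1.2-fold in 9, 8, 9 and 7 of 9 other settings. At 96 h its ratio had an interval from -0.20 to 1.37, and it was 0.071 without shared barcodes. At 0 h, where it was deepest, Otc had 59.5 and 85.3 CPM in pericentral and periportal nuclei. Nags had log2 ratios of -0.0017, -0.10, 0.02 and -0.13, each with an interval that held 0, and at 96 h that interval ran from -0.61 to 0.35. Slc25a13 had -0.03, 0.02, 0.19 and 0.13 and Slc25a15 had 0.10, 0.17, 0.20 and 0.09, none past 1.2-fold. In the other settings Slc25a15 was past it in 1 of 9 at 48 h and 3 of 9 at 72 h, and Slc25a13 in none. By value, Nags and the 2 carriers stood below Cps1, Otc, Ass1 and Asl in each library, and the intervals of some of these pairs overlapped.

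At 0, 48, 72 and 96 h, 3, 4, 4 and 4 of the 7 members were at least 1.2-fold higher in periportal nuclei, where 4.26%, 3.69%, 6.93% and 10.7% of genes were, and no member was 1.2-fold lower, where 5.6%, 4.68%, 11.4% and 15.7% of genes were. The median member had 0.14, 0.33, 0.29 and 0.48 and the median gene -0.03, -0.01, -0.02 and -0.03. Without the nuclei whose barcode is also listed in another library the median member had 0.14, 0.26, 0.23 and 0.19. Other values moved with the score. The summed hepatocyte markers were higher in periportal nuclei by log2 ratios of 0.32, 0.07, 0.16 and 0.31, with 10, 6, 8 and 9 of 10 above 0. The summed cholangiocyte markers were higher by 0.72, 0.27, 0.32 and 0.24, stellate and mesenchymal markers by 0.14, 0.08, 0.09 and 0.24. Kupffer and other immune markers differed by -0.18, -0.05, -0.12 and 0.18, endothelial markers by -0.17, -0.08, -0.07 and -0.05, and median depth was 32534, 15616, 6252.5 and 4640.5 counts in pericentral and 25292, 11055, 4759.5 and 4401.5 in periportal nuclei. Their part in the member values was not tested. When only every other zone gene made the score, all 5 left-out periportal genes were higher in periportal nuclei in every run. The left-out pericentral genes were lower in 6 of 6 and 7 of 7 at 0 h, 5 of 6 and 7 of 7 at 48 h, 5 of 6 and 6 of 7 at 72 h, and 4 of 6 and 6 of 7 at 96 h. In these runs the member median was 0.099 to 0.43. In each library 346 to 444 nuclei had the score of the lower limit and 217 to 426 that of the upper limit, and these were placed at random.

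**Figure D4:**
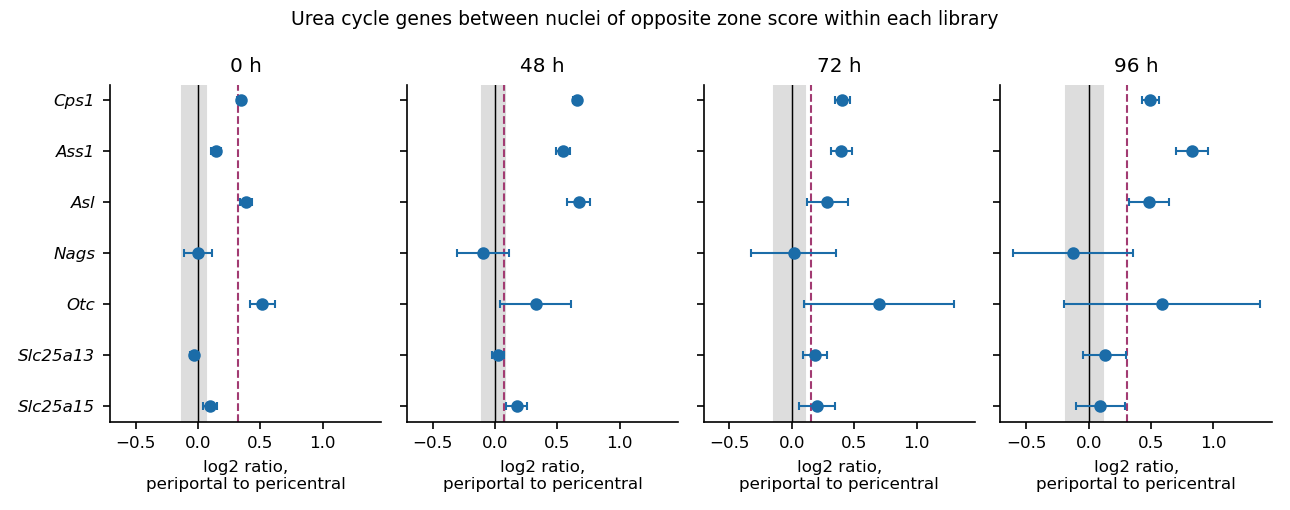
Log2 ratio of periportal to pericentral nuclei for each member within the 0, 48, 72 and 96 h libraries, with 95% counting intervals, the interquartile range of all genes in grey and the summed hepatocyte markers as a dashed line. Cps1 and Asl lie to the right of the grey band in every library, at 0.29 to 0.67, and Nags at -0.13 to 0.02.

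The genes whose pattern over the 3 ratios to 0 h was most like that of Cps1, among 5376 genes with a mean of at least 50 CPM, were St3gal1, Nos1ap and Bhmt, at Euclidean distances of 0.0993, 0.134 and 0.144 in log2 units. Bhmt, which remethylates homocysteine, had 124, 193, 172 and 214 CPM at 0, 48, 72 and 96 h. The order rests on 4 libraries and carries no test.

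Genes that feed nitrogen into the cycle or use its arginine were taken as a list of 20, of which 18 passed the minimum. At 48, 72 and 96 h, 1, 0 and 0 of them were at least 1.5-fold higher than at 0 h and 2, 7 and 7 were lower, beside the shares of all genes given above. Their median log2 ratios were -0.21, -0.37 and -0.49. The largest change was at Agmat, which acts on agmatine, with 112, 67.7, 31.9 and 33.9 CPM. Aqp9, a channel for glycerol and urea, had 336, 267, 124 and 124 CPM, over 56478, 53584, 28271 and 11774 bp. Car5a, the mitochondrial carbonic anhydrase that supplies bicarbonate to carbamoyl phosphate synthetase, had 133, 101, 92.5 and 51.9 CPM. Gls2, the liver glutaminase that releases ammonia, had 212, 136, 123 and 94.6 CPM. The covered length of all 4 was also shorter at 96 h, for Gls2 4934 bp against 20995 bp at 0 h. Per kb of covered peak all 4 were higher at 96 h than at 0 h, Agmat with 13.8 against 6.48 CPM and Gls2 with 19.2 against 10.1. The median gene had 16.9 against 7.32.

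A list of 10 genes held those of hormone and transcription factor control of the cycle and Tat, the gene of an enzyme and not a regulator. At 48, 72 and 96 h, 1, 0 and 1 of the 10 were at least 1.5-fold higher than at 0 h, and 3, 4 and 2 lower. The 1 higher at 96 h was Tat. Of all genes 11.2%, 16.4% and 16.5% were higher and 7.27%, 16.6% and 17.1% lower. Cebpa, a liver transcription factor, had 267, 171, 108 and 157 CPM over 15516, 15738, 9055 and 8499 bp. Klf15, which acts in amino acid breakdown, had 354, 203, 172 and 271 CPM, and its peaks shortened from 27446 bp in the 0 h library to 17542 bp in that of 96 h. Both were lowest at 72 h, as was Asl, but so were most of the 10 genes of this list. Gcgr, the glucagon receptor, had 150, 97.0, 84.3 and 92.0 CPM, and its covered length went from 19391 to 8161 bp between 0 and 96 h. Tat, the tyrosine aminotransferase gene that glucocorticoids induce, had 243, 295, 309 and 403 CPM, its covered length was 15986 bp at first and 11983 bp in the last library, and it was the only one of the 4 above 0 h at every time.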

How the data were processed

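The authors made the deposited counts, whole numbers of transposase cut sites per peak and barcode, with Cell Ranger ATAC (version 1.1.0 in the file headers, build mm10 in the submitters' processing notes), which aligned reads, removed duplicates and called peaks separately in each library. Between 87.3% and 88.6% of the nonzero values were even, since a fragment with its 2 ends in a peak counts at each, so intervals were computed on counts divided by 2. No peak ran past the chromosome ends of GRCm38.

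Python 3.11.15 with numpy 2.4.6, pandas 2.3.3 and scipy 1.17.1 was used. Barcodes with at least 1000 counts were called nuclei. Doublets were not called, and leaving out the 5% of nuclei with the most counts was an alternative. Counts in peaks that overlap the gene body plus 2000 bp upstream (GENCODE vM21, protein-coding genes) were summed over nuclei and divided by the library total. Log2 ratios used a pseudocount of 1 CPM, and a gene was called at 1.5-fold. For the zone score, 258, 313, 636 and 740 nuclei of the 0, 48, 72 and 96 h libraries were too shallow to be thinned to 2000 counts and were left out. Other settings, given in the closing section, changed 1 choice at a time. The calculation was tested on simulated counts with known changes at the peaks of the 0 h library. Calling peaks separately in each library was not part of that test.

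All 7 genes are named, and 1 further gene that the choice by name takes in is not reported here and enters no count or median of the members. Of the partner and regulator lists at most the 4 genes with the largest change at any time are named, and for Cps1 the 3 genes nearest in pattern. Members and lists were chosen with earlier results of these data known. Sequences are from RefSeq, build GRCm38.p6, the same assembly as mm10.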

Additional observations from a re-analysis of the deposited data

Results flagged for a closer look

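Barcodes under the minimum of 1000 counts were left out of the main comparisons, and they also held counts at the members. In a setting with all deposited barcodes the median log2 ratios of the members to 0 h were -0.0079, -0.52 and -0.39 at 48, 72 and 96 h. The 7 genes together had 2704, 2317, 1982 and 2086 CPM in the 668, 1081, 1444 and 1675 such barcodes of the 0, 48, 72 and 96 h libraries, beside 2674, 3003, 2488 and 2753 in the nuclei. Of these barcodes 28.3%, 55.1%, 57.6% and 46.6% were also listed in another library. Barcodes common to 0 and 48 h had a median of 73857 counts at 0 h and 467.5 at 48 h, and those common to 0 and 72 h and to 0 and 96 h had 71159 against 483 and 72533.5 against 421. The libraries were pooled for sequencing, and what these barcodes held was not tested.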

How the results depend on the processing

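Depth limits Otc and Nags most, and no setting supplies the missing replicates. The median log2 ratio of the members was -0.0066, -0.51 and -0.38 at 48, 72 and 96 h. It became 0.038, 0.21 and 1.02 per kb of covered length and 0.18, 0.69 and 0.85 with counts binarised per peak, where a long peak can add only 1 per nucleus. It was -0.34, -1.81 and -2.62 for start site peaks alone, and 0.21 and 0.82 at 72 and 96 h for the 3 and 1 members of nearly unchanged covered length. Elements of near-equal length gave 0.18 and -0.0021 at 48 and 72 h, for 4 and 3 members, and none was left at 96 h. Scaling to regions with a peak in every library gave 0.069 and -0.49 at 48 and 96 h, setting the median gene to 0 gave 0.054 and -0.45, the gene body alone gave -0.58 at 72 h, and merged regions gave -0.26 at 96 h.

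Among gene values past 1.5-fold, direction reversed for Cps1 (-0.049) and Asl (0.66) at 48 h and for Asl (0.69) at 72 h with binarised counts, for Otc at 48 h in its near-equal element (0.37), for Cps1 at 96 h at the start site (-5.14), and per kb for Otc at 48 and 72 h (0.038 and 0.74) and for Nags, Otc and Slc25a13 at 96 h (0.36, 1.94 and 1.64). Values within 1.5-fold of 0 h changed sign in 22 cases, and 5 of these then passed 1.5-fold: Slc25a15 at 96 h per kb (1.05) and, with binarised counts, Slc25a15 at 72 and 96 h (0.84 and 0.85) and Asl and Ass1 at 96 h (1.59 and 2.46). The part of covered length is by construction of these measures, and no other cause was tested. The periportal medians of 0.14, 0.33, 0.29 and 0.48 stayed above 0 in every setting run but start site peaks at 96 h, which gave -0.021. They were 0.17 at 48 h for start site peaks, 0.30, 0.49 and 0.29 at 0, 48 and 96 h with member counts thinned as well, 0.19 at 96 h without shared barcodes and 0.21 at 96 h with the score from even positions. Start site peaks reversed Asl at 72 and 96 h (-0.24 and -0.30) and Cps1 at 96 h (-0.021). A member was 1.2-fold lower in 4 cases, Asl at 96 h for start site peaks and Nags at 0 h with member counts thinned (-0.27), at 72 h without nuclei that had more counts at other markers than at hepatocyte markers (-0.32) and at 96 h with the score from odd positions (-0.46), where that from even positions gave 0.28. In 29 further cases the periportal medians, and in 25 the medians of ratios to 0 h, moved by less than the counting interval of the median member. Regions merged over libraries, genes of unchanged covered length, scores from every other zone gene and the removal of shared barcodes were chosen after seeing the data.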
